A study of Rattus norvegicus with 6 samples.

Results

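Selenow and Gpx3 are selenoprotein genes, and 10 transcripts that carry their names were listed among 4972 transcripts in a deposited long non-coding RNA (lncRNA) table of rat hippocampus. They were taken by the transcript name without its number, which gave 7 transcripts of Selenow and 3 of Gpx3. Of the 6 libraries, 3 came from 2VO rats that received TMAO (trimethylamine N-oxide, a gut-derived metabolite) at 120 mg/kg over 8 weeks, and 3 from 2VO rats on sterile water over the same 8 weeks. All 6 libraries therefore carry the 2VO state, which is commonly the permanent occlusion of both common carotid arteries and here serves as the vascular dementia model of the study's title. The labels name no strain, sex or age, and no library of rats without 2VO was analysed here. They do not say either that each library is 1 animal, so the p-values below rest on the spread between libraries, which may be technical.

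Selenoproteins contain selenocysteine, an amino acid inserted at a UGA codon that would otherwise stop translation, with the help of a structure in the messenger RNA. Selenow encodes selenoprotein W, a small cytosolic protein of muscle and brain that binds glutathione. Gpx3 encodes the secreted glutathione peroxidase of blood plasma, which reduces peroxides with glutathione and is made mainly in the kidney. RefSeq (GRCr8) lists both genes as protein-coding, yet the 10 transcripts stood in the table of non-coding RNAs. Their sequences and transcript classes were not used here, so the levels below are those of the 10 listed transcripts, and no separate table of messenger RNAs and no proteins were analysed here. How reads shared between these transcripts and the coding messenger RNA were divided is unknown, so counts of single transcripts are uncertain.

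The windows around the RefSeq starts of both genes are shown to place them in the genome; the starts of the 10 transcripts themselves were not used here, and no measurement in this series reads these windows. Each holds 250 bases before and 50 from the start, in GRCr8 coordinates, 5′ to 3′ on the gene's strand. Capitals mark matches, on either strand and with overlaps allowed, to motifs of 5 kinds. The TATA box, which places the start of transcription, was searched as TATAAA. The Sp1 box, bound by the widely expressed factor of that name, was searched as GGGCGG. The CCAAT box was searched by the letters of its name. The antioxidant response element, bound by the stress factor Nrf2, was searched as TGACNNNGC. The core of the metal response element, bound by the metal-sensing factor Mtf1, was searched in a loose form, TGCNCNC, where N is any base. A match to this form need not be a site that Mtf1 binds.
Selenow, chr1:85732654-85732953, minus strand: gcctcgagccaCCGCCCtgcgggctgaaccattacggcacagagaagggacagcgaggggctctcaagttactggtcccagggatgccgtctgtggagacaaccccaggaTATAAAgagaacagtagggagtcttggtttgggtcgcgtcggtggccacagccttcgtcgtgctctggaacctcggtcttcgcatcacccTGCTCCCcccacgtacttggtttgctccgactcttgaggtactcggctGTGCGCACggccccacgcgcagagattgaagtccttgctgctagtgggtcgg
Gpx3, chr10:39529085-39529384, plus strand: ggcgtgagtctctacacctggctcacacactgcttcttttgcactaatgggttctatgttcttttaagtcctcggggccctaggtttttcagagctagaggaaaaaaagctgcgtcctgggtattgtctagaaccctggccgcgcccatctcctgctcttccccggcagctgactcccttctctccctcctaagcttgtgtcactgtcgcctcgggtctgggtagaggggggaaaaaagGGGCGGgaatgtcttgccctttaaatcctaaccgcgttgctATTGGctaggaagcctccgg

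The Selenow window had the letters of a TATA box at -140 to -135 and an Sp1 box on the other strand at -239 to -234. In windows of genes on either strand, TATAAA before the start began most often at -30, so the Selenow match lay farther upstream. Loose matches to the metal response element core stood at -50 to -44 (TGCTCCC) and on both strands in overlap at the start. The Gpx3 window had an Sp1 box at -11 to -6 and a CCAAT box on the other strand at 31 to 35. Among 33469 windows of the same length, a TATA box was found in 14.2% and an Sp1 box in 33.1%. A CCAAT box was found in 37.5% and the loose metal response element core in 49.6%. The letters of the antioxidant response element were found in 12.1% of windows and in neither of these. A match is only a match of letters.

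Summed over its transcripts, Selenow was nearly level across the hippocampal libraries and did not pass the test between TMAO and 2VO. The Selenow sum was 132, 113 and 109 counts in the TMAO libraries and 134, 123 and 123 counts in the 2VO libraries. Per length, the summed level was 2.11, 2.02 and 1.78 FPKM (fragments scaled to transcript length and library depth) in TMAO and 1.87, 2.02 and 2.16 FPKM in 2VO. The FPKM values of the groups overlapped, and no library stood apart. On the CPM scale (counts scaled to the library's lncRNA total, with edgeR's TMM factors), the mean level was 135 ± 5.97 CPM in TMAO and 143 ± 5.32 CPM in 2VO (SD, n = 3 each). The log2 fold change was -0.08 (SE 0.15), with a 95% interval of the fold from 0.739 to 1.22 and an adjusted p of 0.921 in edgeR's quasi-likelihood test. Of the 1386 rows in that fit, 81.5% had a larger absolute log2 fold change. As a share of the whole table without TMM, Selenow held 138 ± 9.75 of 1000000 counts in TMAO and 139 ± 6.06 in 2VO (SD, n = 3 each; exact two-sided permutation p of 1). As a share of 1000000 FPKM of the table it held 34.3, 32.8 and 30.1 in TMAO and 26.1, 29.2 and 29.9 in 2VO. In that unit the groups did not overlap, though the nearest libraries were close. The exact two-sided permutation p was 0.1, the smallest that 3 against 3 can give. The summed FPKM overlapped, so this separation comes with the FPKM total of the table, which divides it. How many other transcripts were apart in this unit was not computed.

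Gpx3 was higher in TMAO by the mean, within the spread between libraries. The Gpx3 sum was 140, 159 and 129 counts in TMAO and 163, 108 and 93 counts in 2VO. The 2VO-1 library held the highest Gpx3 count of all 6, and the other 2VO libraries the lowest, so the groups overlapped through 2VO-1 alone. After scaling, TMAO-2 was highest, at 186 CPM against 181 CPM in 2VO-1. The mean level was 164 ± 19.2 CPM in TMAO and 137 ± 39.5 CPM in 2VO (SD, n = 3 each). The log2 fold change was 0.27 (SE 0.24), with a 95% interval of the fold from 0.804 to 1.80 and 0.862 as the edgeR adjusted p. When 2VO-1 was left out this log2 fold change became 0.52 (SE 0.20), with an unadjusted p of 0.0435 and an adjusted p of 0.703 by edgeR, so that library moved the size and not the call. Without 2VO-3 it was 0.13 (SE 0.24) and without TMAO-2 0.18 (SE 0.28). A transcript for which the authors' table gives Cd34, an endothelial marker, as source gene had its highest count in 2VO-1. It had 95, 63 and 85 counts in TMAO and 257, 97 and 126 counts in 2VO. Its lowest count was in TMAO-2, where the Gpx3 level in CPM was highest. Whether this transcript follows endothelial cells was not tested. It stood for the only gene found of 38 markers of brain, vessel, choroid plexus and blood cells. None of the 8 neuron markers was among the names of this non-coding table. Source genes stand only in the authors' second deposited table, of 56 transcripts, where the largest authors' p was 0.0479. Elsewhere a marker could be found by transcript name alone. The part of the Cd34-source transcript in the Gpx3 values was not tested. In bulk tissue, fewer cells of a type and less RNA per cell cannot be told apart.

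**Figure D1:**
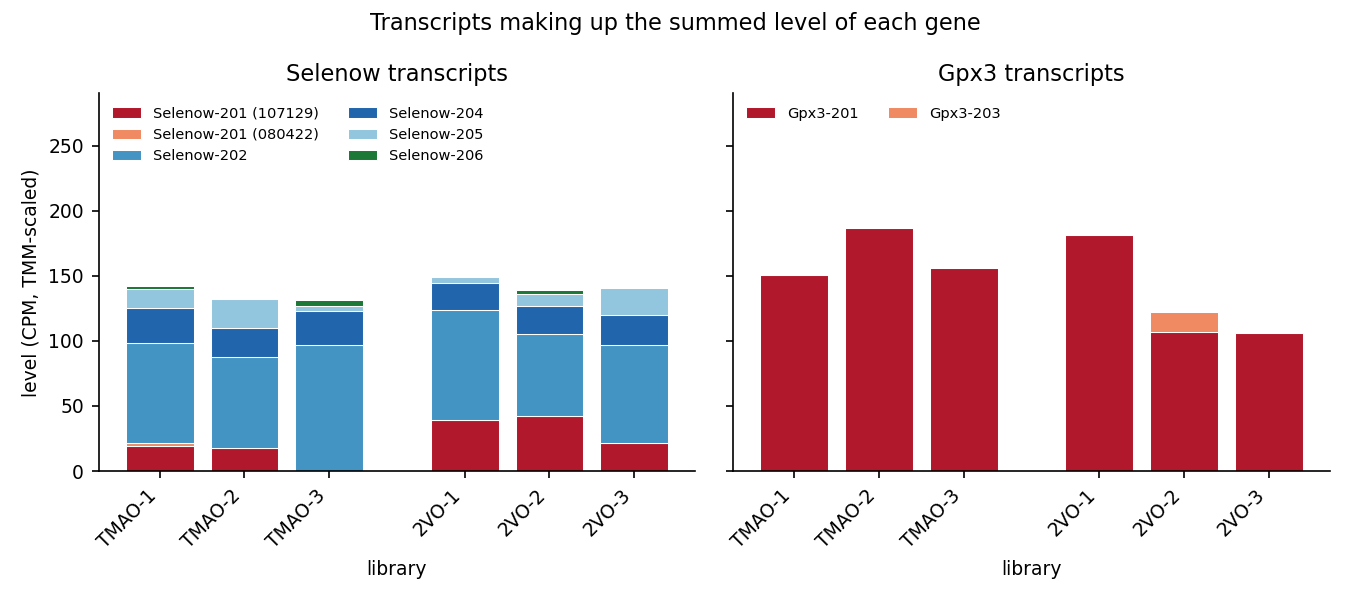
Level in CPM of each Selenow transcript (left) and Gpx3 transcript (right), stacked to the gene's sum, in the TMAO libraries and then the 2VO libraries; for Selenow-201 the last 6 digits of the identifier are added. The Selenow sums lie between 132 and 149 CPM while the part of ENSRNOT00000107129 runs from 0 to 41.9 CPM, and nearly all Gpx3 is Gpx3-201.

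Of the 10 transcripts, 5 passed the low-count filter, 3 had a few counts below it and 2 had none. None of the 5 passed an adjusted p of 0.05 in edgeR, as for 0% of the 1389 transcripts tested, and none had an unadjusted p under 0.05, as 7.56% of all did. DESeq2, which called 1.27% of its transcripts, called none of the 5 either, with an adjusted p of 0.993 for each. In the authors' deposited table, where 0.261% of transcripts had a false discovery rate under 0.05, none of the 10 did. Their smallest authors' p there was 0.150, for ENSRNOT00000107129, and the second deposited table, of 56 transcripts, held none of them. For the 3 with a few counts below the filter, the authors' p equals that of DESeq2 without the filter. The authors' values may therefore come from the same test. By the fitted direction 1 of the 5 was lower and 4 were higher in TMAO. Their median log2 fold change was 0.21 against -0.00004 over all tested, of which 50% were higher. Most of the 5 are transcripts of the same gene, Selenow, so their directions are not independent. The Selenow sum itself had a log2 fold change of -0.08, and Selenow-205 changed direction without TMAO-2 or without 2VO-1.

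The transcript with the largest difference among the 5 was ENSRNOT00000107129, one of a pair that the table names Selenow-201. It had 18, 15 and 0 counts in TMAO and 35, 37 and 19 counts in 2VO. Its levels were 19.4, 17.6 and 0 CPM in TMAO and 38.9, 41.9 and 21.7 CPM in 2VO. The groups did not overlap, with TMAO lower as in 7.2% of all tested transcripts (14.4% in either direction), although the lowest 2VO library and the highest TMAO library were close and TMAO-3 alone was at 0. The log2 fold change was -1.45 (SE 0.94), with a 95% interval of the fold from 0.0774 to 1.73 and an edgeR adjusted p of 0.779. Without TMAO-3 it was -0.85 (SE 0.42), at an adjusted p of 0.634. The other Selenow-201 entry, ENSRNOT00000080422, had 2 counts in TMAO-1 and none elsewhere, which lies under the floor of 3 counts over a group, so no fold is given. The ratio of count to FPKM put the entries at unlike lengths: taking Gpx3-201 as 1, ENSRNOT00000107129 was 1.86 long and ENSRNOT00000080422 0.319. The value of ENSRNOT00000080422 rests on its 2 counts in TMAO-1 and is rough. Across the table, 9 names stood for more than 1 transcript, so a transcript name alone does not fix which one is meant.

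Selenow-202 (ENSRNOT00000110531) was the most abundant Selenow transcript, with 71, 60 and 80 counts in TMAO and 76, 56 and 66 counts in 2VO. Both groups covered nearly the same range, and its level of 81.2 ± 13.7 CPM in TMAO and 74.4 ± 10.6 CPM in 2VO (SD, n = 3 each) gave a log2 fold change of 0.12 (SE 0.21). The 95% interval of its fold ran from 0.768 to 1.55 at an edgeR adjusted p of 0.906. TMAO-3, where ENSRNOT00000107129 was at 0, held the highest Selenow-202 count, and without it the log2 fold change was 0.015. Without 2VO-2, which held the lowest, it was 0.028, and without TMAO-2 or 2VO-1 it was 0.23 and 0.22.

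Selenow-204 (ENSRNOT00000103311) varied least among libraries of the 5 tested transcripts, with 25, 19 and 22 counts in TMAO and 19, 19 and 20 counts in 2VO. Its log2 fold change was 0.21 (SE 0.29) at an edgeR adjusted p of 0.891, with a 95% interval of the fold from 0.718 to 1.86. Selenow-205 (ENSRNOT00000110278) spread widely within both groups, with 14, 19 and 3 counts in TMAO and 4, 8 and 18 counts in 2VO. Its log2 fold change of 0.27 (SE 0.79) had a 95% interval of the fold from 0.325 to 4.46 and an edgeR adjusted p of 0.937, so even a 4-fold difference lay within what these libraries allow. It turned to -0.23 without TMAO-2 and to -0.11 without 2VO-1.

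Selenow-206 (ENSRNOT00000112681) had 2, 0 and 4 counts in TMAO and 0, 3 and 0 counts in 2VO. The TMAO total was 2.04 times the 2VO total after scaling (exact binomial interval at 95%: 0.435 to 12.6, counting error only). Selenow-203 (ENSRNOT00000101950) and Gpx3-202 (ENSRNOT00000112041) stayed at 0 counts throughout, which allows up to 0.570 CPM by the floor of 3 counts summed over the 6 libraries.

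**Figure D2:**
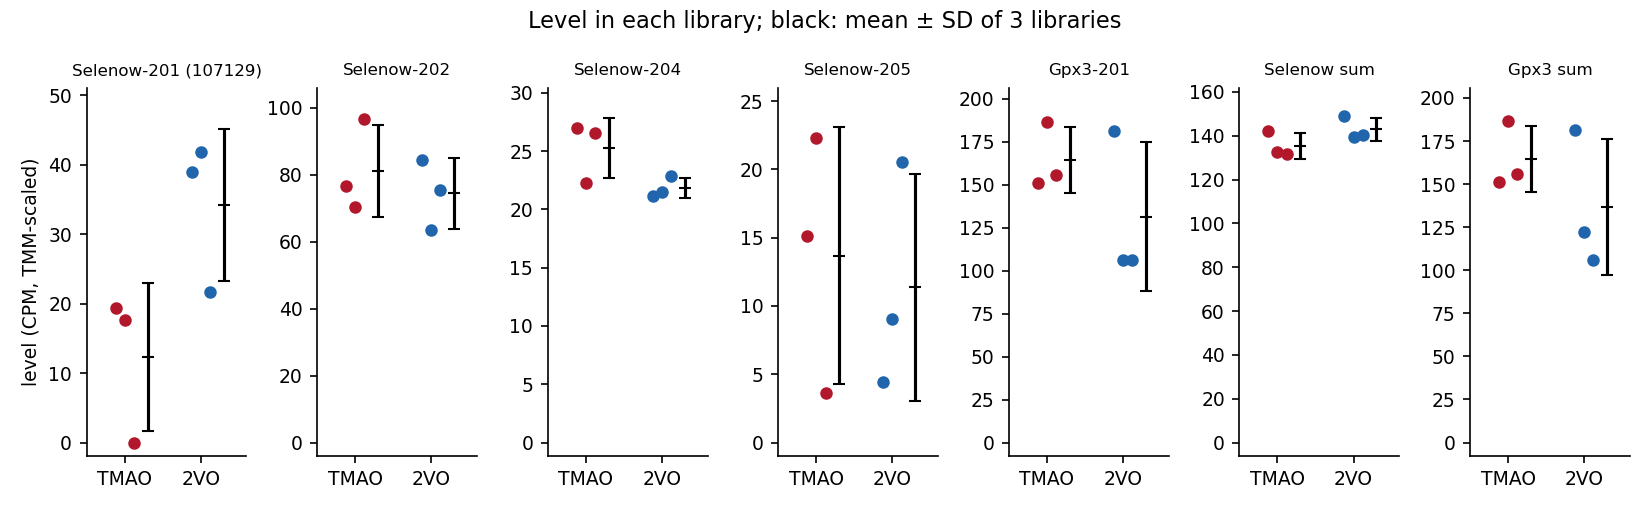
Level in CPM of the 5 transcripts past the low-count filter and of both sums, each point a library, TMAO left and 2VO right, with the mean and SD of 3 libraries in black; every axis includes 0 and has its own scale. The Selenow-201 entry ENSRNOT00000107129 is 19.4 CPM or lower in TMAO and 21.7 CPM or higher in 2VO, and the other panels overlap between the groups.

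Gpx3-201 (ENSRNOT00000079830) carried all Gpx3 counts in 5 of the libraries. It had 140, 159 and 129 counts in TMAO and 163, 94 and 93 counts in 2VO, so that 2VO-1 again lay apart from the other 2VO libraries. Its level was 164 ± 19.2 CPM in TMAO and 131 ± 43.3 CPM in 2VO (SD, n = 3 each), with a log2 fold change of 0.32 (SE 0.26). The 95% interval of its fold ran from 0.812 to 1.93, at 0.854 for the edgeR adjusted p. Leaving out 2VO-1 gave a log2 fold change of 0.62 (SE 0.19), with an unadjusted p of 0.0198 and an adjusted p of 0.627 by edgeR. It was 0.20 (SE 0.28) without 2VO-2, at an unadjusted p of 0.495, and 0.20 (SE 0.28) without 2VO-3, at 0.494, so the size moved in both directions with the 2VO library left out. Gpx3-203 (ENSRNOT00000097778) had no count in TMAO and 0, 14 and 0 counts in 2VO. Against a floor of 3 counts over the TMAO group, its total was at least 4.58-fold lower there. This bound rests on 2VO-2 alone, as the other 2VO libraries had no count. Fitted by edgeR without the filter, its 95% interval of the fold ran from 0.00046 to 1.54, at an unadjusted p of 0.0724. The authors' deposited table gives Gpx3-203 a log2 ratio of -7.85, where a mean of 0 was written as 0.001 FPKM, beside an authors' p of 0.206.

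**Figure D3:**
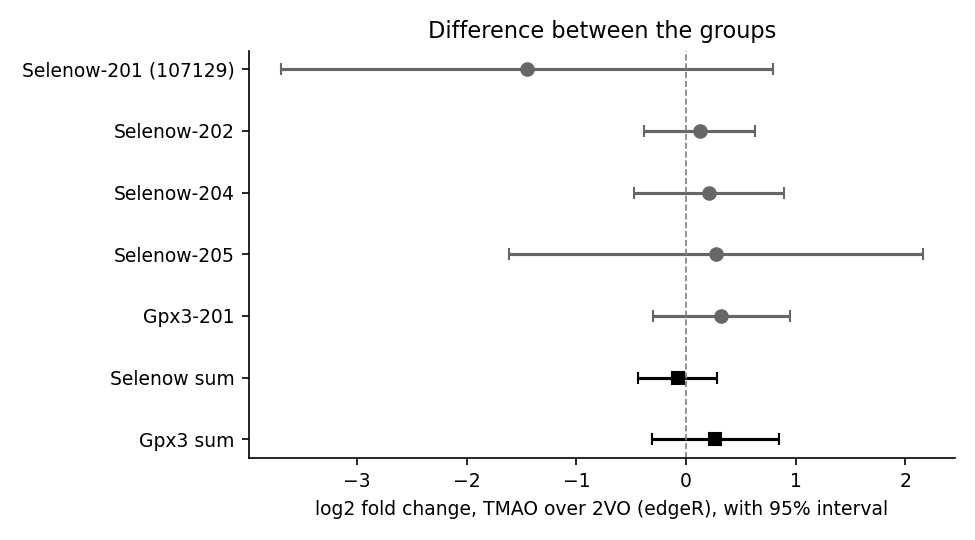
Log2 fold change of TMAO over 2VO for the 5 tested transcripts (circles) and both sums (squares), with 95% intervals from edgeR. All intervals include 0; the Selenow sum has the shortest, from -0.44 to 0.28, and ENSRNOT00000107129 the longest, from -3.69 to 0.79.

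The share of Selenow counts that each transcript held was compared next, since a share does not depend on library size. ENSRNOT00000107129 held 13.6%, 13.3% and 0% of the Selenow counts in TMAO and 26.1%, 30.1% and 15.4% in 2VO. The mean share was 8.97 ± 7.77% in TMAO and 23.9 ± 7.57% in 2VO (SD, n = 3 each), with an exact permutation p of 0.1, the smallest that 3 against 3 can give, and an adjusted p of 0.35 over 7 shares compared. Selenow-204 held 18.9%, 16.8% and 20.2% in TMAO and 14.2%, 15.4% and 16.3% in 2VO, again at an exact two-sided permutation p of 0.1 and an adjusted p of 0.35. For both the groups did not overlap in shares of counts. How often transcript shares of other genes were apart in this way was not computed. In shares of FPKM, ENSRNOT00000107129 held 9.95%, 10.4% and 0% in TMAO and 24.1%, 24.3% and 12% in 2VO, still apart, while Selenow-204 overlapped at 15.6%, 14.4% and 18.5% in TMAO and 14.4%, 14.4% and 13.9% in 2VO. Selenow-202 held 60.1 ± 11.5% in TMAO and 52.0 ± 5.78% in 2VO (SD, n = 3 each; exact permutation p of 0.5), and TMAO-3, at 73.4%, was the highest. Without TMAO-3 the difference in the Selenow-202 share was 1.47 points, against 8.13 points with it. Shares of one gene add up to the whole, so these values are not independent of each other.

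The counts of Selenow and Gpx3 differed in how far they spread between libraries of a group, a measure chosen after the values were seen. It was taken as the chi-square of the counts within groups over its degrees of freedom, where 1 is what counting error alone would give on average. The Selenow sum had 0.206, below that level, and the Gpx3 sum 6.06. Without 2VO-1 the Gpx3 sum had 1.64, and without TMAO-1 the Selenow sum had 0.119. Among 261 tested transcripts with a mean count within 1.5 times that of the Selenow sum, the median was 4.51, and 0.766% lay below 0.206. A sum may vary less than a single transcript, so sums are the closer measure: of 20 gene symbols with at least 2 counted transcripts and a mean sum of at least 10 counts, Selenow ranked 1, Urm1 followed at 1.29, the median was 3.90 and Gpx3 ranked 13. With whole-library sizes in place of TMM, Selenow ranked 1 at 0.150 and Gpx3 13 at 5.83. The single Selenow transcripts did not share this steadiness as a group: ENSRNOT00000107129 had 5.40, Selenow-205 5.38, Selenow-202 1.65 and Selenow-204 0.132. These values describe 6 libraries and were given no test.

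**Figure D4:**
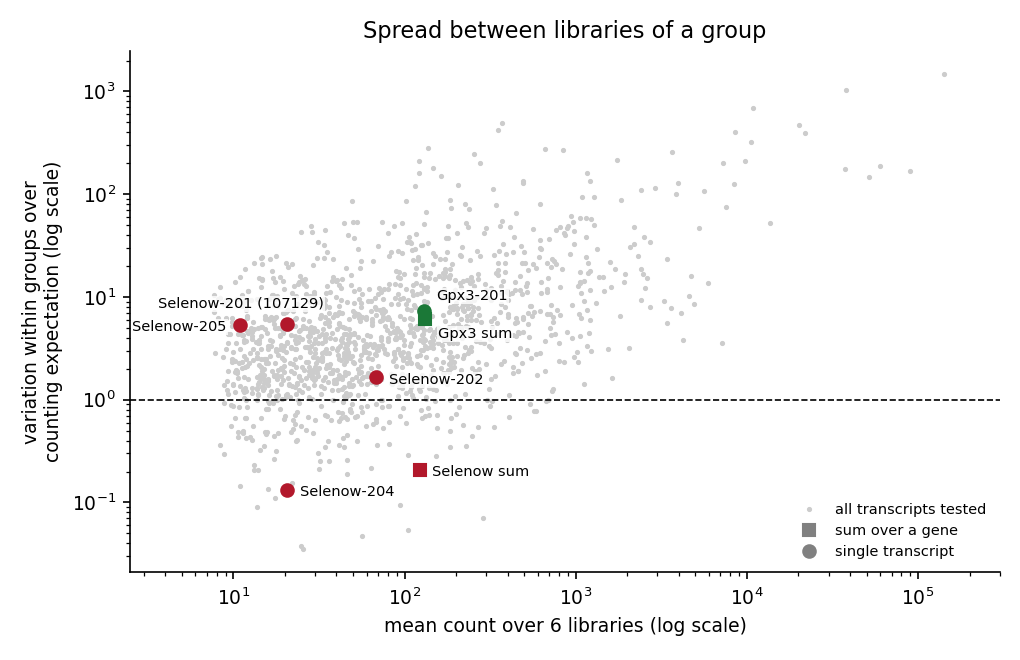
Variation within groups over the counting expectation (log axis) against the mean count over 6 libraries (log axis) for all 1389 tested transcripts in grey, Selenow in red and Gpx3 in green, sums as squares; the dashed line is 1. The Selenow sum lies at 0.206 and the Gpx3 sum at 6.06 at nearly the same mean count, 122 and 132.

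Per length, Gpx3 lay above Selenow in 6 of 6 libraries. The Gpx3 sum was 3.13, 3.97 and 3.23 FPKM in TMAO and 3.92, 3 and 2.38 FPKM in 2VO. Among the 1386 rows, the Gpx3 sum ranked 377 by mean FPKM and the Selenow sum 520. The ratio of Selenow to Gpx3 FPKM was 0.674, 0.509 and 0.551 in TMAO and 0.477, 0.673 and 0.908 in 2VO, which overlapped, and the log2 ratio had an exact two-sided permutation p of 0.7. In mean FPKM, Gpx3-201 was highest at 3.44 ± 0.46 in TMAO and 2.87 ± 0.91 in 2VO, followed by Selenow-202 at 0.937 ± 0.144 in TMAO and 0.900 ± 0.128 in 2VO (SD, n = 3 each). Those levels did not overlap. The other tested transcripts lay lower, in an order that differed between the groups. Selenow-205 had 0.423 ± 0.293 FPKM in TMAO and 0.370 ± 0.272 FPKM in 2VO (SD, n = 3 each). Selenow-204 had 0.317 ± 0.023 FPKM in TMAO and 0.287 ± 0.015 FPKM in 2VO (SD, n = 3 each). ENSRNOT00000107129 had 0.140 ± 0.121 FPKM in TMAO and 0.400 ± 0.123 FPKM in 2VO (SD, n = 3 each), which was the lowest of these last transcripts in TMAO and the highest in 2VO. In TMAO Selenow-205 overlapped with both others, while ENSRNOT00000107129, at 0.21 FPKM or lower, lay below Selenow-204, at 0.29 FPKM or higher. In 2VO all of them overlapped. The lengths behind FPKM, relative to Gpx3-201, were 1.81 for Selenow-202, 1.67 for Selenow-204 and 0.678 for Selenow-205, so counts favour the longer transcripts.

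Of 24 selenoprotein genes looked for by name, only Selenow and Gpx3 were found in the table, and none of 9 genes of selenocysteine synthesis and selenium uptake or of 26 other glutathione, thioredoxin and antioxidant genes. A comparison with the rest of the pathway was therefore not possible in these lncRNA counts. Among 60 tested transcripts with a gene symbol or a source gene, those whose log2(CPM + 1) was most like the Selenow sum over the 6 libraries were MSTRG.16102.1 with the source gene Tlr9, a receptor for unmethylated DNA (Pearson r of 0.89), MSTRG.4261.1, for which RGD1563400 is given (0.88), and Sptssb-202 (0.85), whose gene encodes a subunit of serine palmitoyltransferase. Source genes stand only in the second of the authors' deposited tables, where the largest authors' p was 0.0479. Most like the Gpx3 sum were Mrpl52-203 (0.90), named for a mitochondrial ribosomal protein, Tcim-201 (0.84) and Rpl30-201 (0.79), named for a protein of the large ribosomal subunit. The Selenow and Gpx3 sums had an r of -0.06 with each other. The transcripts named here were picked as the highest of 60, which raises their r by selection, and no r was tested. Within groups the Selenow sum spread less than counting error alone gives on average (0.206, where 1 is that level). These correlations share library sizes and describe 6 libraries.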

How the data were processed

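Total RNA of rat hippocampus was sequenced in 3 TMAO and 3 2VO libraries, grouped by the sample labels. The authors deposited raw counts and FPKM per lncRNA transcript for each library, per the file headers, with FPKM rounded to 2 decimals. The authors' mean FPKM, their log2 ratio, p-value and false discovery rate stand in the same deposited table. What test gave them is not stated. For Selenow-206, Gpx3-203 and ENSRNOT00000080422 the authors' p (0.707, 0.206 and 0.649) equals that of DESeq2 run here without the filter. The submitters' processing notes list rn6 as the build and name DESeq2, StringTie, HISAT2 2.1.0, Bowtie2 and fastp 0.18.0, with no roles; counting method and strand setting are not stated.

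Library totals over the table were 832233 to 883265 in TMAO and 901380 to 919024 in 2VO. Pairs of libraries in a group differed by 12.9 to 18.2 times the chi-square of counting error alone, so none was treated as a second deposit of another. The main test was the quasi-likelihood test of edgeR 4.0.16 (TMM, group alone) in R 4.3.3 on the counts, after filterByExpr (minimum count 10, minimum total 15), which left 1389 transcripts, with Benjamini-Hochberg adjustment over all of them. For sums, the 10 rows were replaced by 1 row a gene, which left 1386 rows. The SE is the absolute log2 fold change over the square root of F. Low members were fitted without the filter. Shares and ratios got a two-sided exact permutation test (SciPy 1.17.1). Alternatives were DESeq2 1.42.0, its size factors in edgeR, whole-library sizes (from count over FPKM in 223 transcripts above 5 FPKM), no filter, a mean count of at least 50, limma 3.58.1 on log2(FPKM + 0.1), 0.01 or 1, the replicate number as a block, and each library left out. The edgeR step was tested on simulated data. Promoter windows came from RefSeq for GRCr8, matched by symbol for both genes; no GRCr8 coordinate was set against the rn6 data. Named transcripts were all members and, for each sum, the 3 named transcripts most correlated with it. The members and lists were chosen with earlier results of these data known. The exact binomial interval and the floors cover counting error only. The edgeR intervals also include the estimated spread between libraries. Figures were drawn with matplotlib 3.10.9.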

Additional observations from a re-analysis of the deposited data

How the results depend on the processing

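None of 10 log2 fold changes followed (8 transcripts and both sums) had an adjusted p under 0.05 in any alternative. Of the 10, 8 kept their direction wherever they were fitted. Gpx3-203 was counted only in 2VO-2 and ENSRNOT00000080422 only in TMAO-1, so their direction could not reverse. Without those libraries they were not fitted. The Selenow sum ran from -0.12 to -0.02 and the Gpx3 sum from 0.13 to 0.52 with a library left out. Selenow-205 ran from -0.23 to 1.02, its share of the Selenow counts from -1.36 to 5.67 points, and Selenow-206 from -0.00013 to 4.11, its share from -0.055 to 1.78 points. The shares of ENSRNOT00000080422 and Gpx3-201 ran from 0 to 0.758 and from 0 to 6.48 points, being 0 without the single library that held the counts. The share of all lncRNA counts held by Selenow differed by -0.50 counts in 1000000, by 4.03 in 1000000 FPKM with FPKM in place of counts (exact permutation p of 0.1, the groups then not overlapping, against a p of 1 with counts), and by -6.02 to 3.22 when a library was dropped. The FPKM share of Selenow also depends on the FPKM total of the table, and the summed Selenow FPKM itself overlapped between the groups. The log2 ratio of Selenow to Gpx3 FPKM ran from -0.45 to 0.018. With a library left out, the variation within groups ran from 0.119 to 0.254 for the Selenow sum and from 1.64 to 7.89 for the Gpx3 sum, alternatives chosen after seeing the data. The cause was not tested. Over the whole table, edgeR called 0 transcripts at an adjusted p under 0.05 (105 unadjusted) and 0 to 1 when a library was dropped, DESeq2 called 17, and limma called 2 at a pseudocount of 0.1 and also at 0.01.

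With the replicate number as a block, the log2 fold change was -0.08 for the Selenow sum (edgeR adjusted p 0.914), 0.30 for the Gpx3 sum (0.772) and -1.85 for ENSRNOT00000107129 (0.644), and no call changed. Same-numbered libraries correlated at -0.07, 0.21 and 0.04 in their deviations from the group means, so the numbers were not read as pairs. ENSRNOT00000107129 ran from -2.33 with limma at a pseudocount of 0.01 to -0.30 with limma at 1; a pseudocount of 1 is above its FPKM. ENSRNOT00000107129, Selenow-204 and Selenow-205 left the test at a mean count of at least 50. Counts were low for ENSRNOT00000107129, Selenow-204 and Selenow-205, with 66 to 124 counts each over 6 libraries, but the spread of ENSRNOT00000107129 (5.40 times the counting expectation) and of Selenow-205 (5.38 times) went beyond counting error. For Selenow-206, Gpx3-203 and ENSRNOT00000080422, with 2 to 14 counts each, depth allows wide intervals or bounds only.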
